A study of Patiria miniata with 46 samples.

Results

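The loci described here are 200 transcribed loci of the bat star Patiria miniata, a sea star, whose RNA was concentrated in sections 7 and 8 of an arm cut along its oral-aboral axis. They were selected on their levels in that series, among 16291 V4_HAP loci, which carry an assembly identifier but no gene name, with at least 100 counts over the 8 oral-aboral sections. Counts were divided by the section total without V4_HAP1_PB.21421, a locus that took up to 50.3% of the counts of a proximo-distal library, to give counts per 1000000 (CPM). The mean CPM of sections 7 and 8 plus 1 was divided by the largest CPM among sections 1 to 5 plus 1, and the loci with the 200 highest ratios, of 23869 loci in all, were taken. The loci were thus chosen by their oral-aboral values, which are given as a description, with no test. Values of the left-right and proximo-distal series did not enter the ratio and were tested, though the list was chosen with earlier results of these data known.

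Polyadenylated RNA of cryosections from arms of young animals was profiled section by section in 46 libraries, with no treatment or genotype contrast. The 8 oral-aboral and 22 proximo-distal sections came from specimen 1 and the 16 left-right sections from specimen 2, so a difference between the left-right series and the others cannot be told apart from a difference between animals. Each position was sampled once, so there are no replicates: a p-value here weighs a fitted pattern against the scatter of sections within a single arm. The labels number the sections without saying which face, side or end section 1 is.

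A sea star arm is built differently on its opposite faces. The oral face carries the ambulacral groove with its tube feet and the radial nerve cord, and the aboral face is a body wall with skeletal plates and soft skin gills, while digestive caeca and gonads lie in the body cavity between them. A slice at the left-right midline passes through the groove and nerve cord, and a slice at either margin through the side wall. Each library mixes all cell types of a section, so fewer cells of a type and less RNA per cell cannot be told apart in any value below.

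Total counts were 2573762 to 6921408 per oral-aboral section, 250704 to 1591759 per left-right section and 196002 to 680685 per proximo-distal section. A count of 0 allowed up to 1.17 CPM in the shallowest oral-aboral section, 12.0 CPM in the shallowest left-right section and 15.3 CPM in the shallowest proximo-distal section. The RefSeq table for assembly Pmin_3.0 matched 0 of the 200 identifiers, and the files do not pair them with gene names, so no function can be given for any of them and only a few identifiers are printed.

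Together the 200 loci supplied 16.2% and 21.0% of the counts in oral-aboral sections 7 and 8, with V4_HAP1_PB.21421 left out of the total. The share was 4.51% in section 6 and lay between 1.38% and 3.25% in sections 1 to 5. A few loci carried most of it: the 10 most counted in a section gave 69.7% of the loci's counts in section 7 and 72.8% in section 8. In sections 7 and 8, 21 loci averaged over 1000 CPM and 73 under 50 CPM, with a median over the 200 loci of 85.9 CPM. The median of the largest value among sections 1 to 5 was 22.0 CPM.

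**Figure D1:**
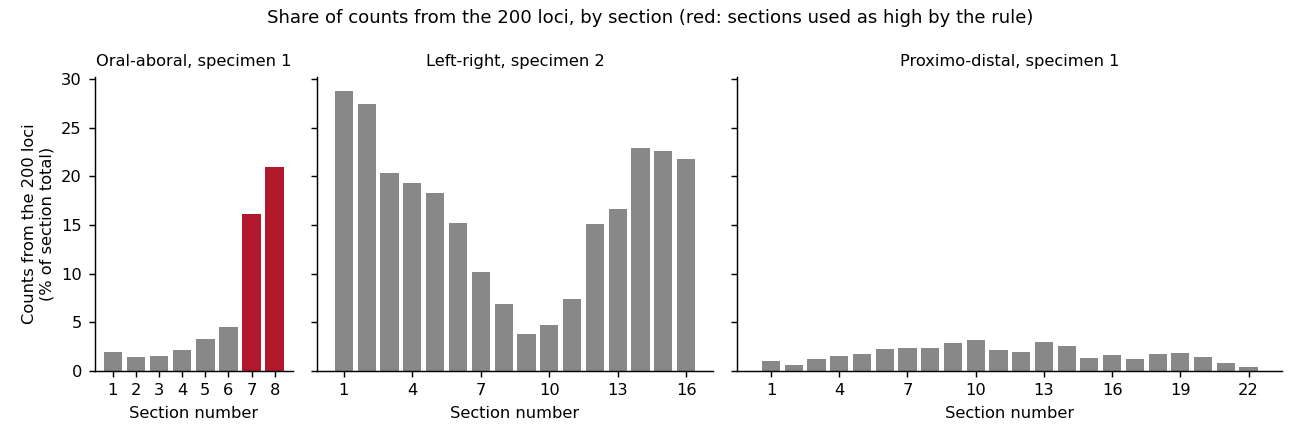
Share of each section's counts that came from the 200 loci, in percent of the section total without V4_HAP1_PB.21421, with 1 bar per section for each of the 3 series; the red bars are the sections the rule used as high. The left-right series has its lowest bar at section 9 (3.76%) and the proximo-distal series stays at or under 3.17%.

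The ratio that ranked the loci ran from 11.6 to 2.43, with a median of 3.35, against a median of 0.559 over all 16291 loci. Just inside the cut, ranks 196 to 200 had ratios from 2.45 to 2.43, and just outside it ranks 201 to 205 had ratios from 2.40 to 2.38, so the list has no natural edge. Sections 7 and 8 both lay above sections 1 to 5 for 199 of the 200, which the choice fixes, as they did for 6.88% of the 16291 loci. Section 8 exceeded section 7 for 173 of the 200 and section 7 exceeded section 8 for 27. The rule used both sections and the share over the 16291 loci was not counted, so nothing is read from this. Section 6 was not part of the ratio. It stood at a median of 0.29 of the mean of sections 7 and 8 and lay below both of them for 199 loci, against 25.6% of the 16291 loci. It was above all of sections 1 to 5 for 132 loci, against 16.9%. The choice of loci bears on both counts for section 6, so nothing is read from them.

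The locus with the highest ratio, V4_HAP1_PB.5377, has the second most counts of the list in sections 7 and 8 together. From section 1 to section 8 it had 4.32, 26.5, 428.4, 1290, 2314, 4465, 20702 and 32940 CPM. It increased at every step, as 32 of the 200 loci did. The choice of loci bears on that count too, and its share over all loci was not counted. V4_HAP1_PB.12919, second by ratio, had 8.97, 6.50, 9.22, 13.2, 22.4, 44.8, 167.9 and 339.8 CPM. It was flat over the first 3 sections and highest in section 8. V4_HAP1_PB.5732, with the most counts in those sections, had 4848, 4690, 4118, 4139, 5190, 6418, 25295 and 34319 CPM. It had at least 4118 CPM in every section and stepped up between sections 6 and 7. The list thus holds loci with steep gradients beside loci well counted throughout the series.

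The loci differed in where they were highest outside sections 6 to 8. Among sections 1 to 5 the largest value was in section 5 for 109 loci and in section 1, the other end of the series, for 63, with 7, 10 and 11 loci in sections 2, 3 and 4. The 109 loci had median CPM of 3.52 in section 1, 9.54 in section 3, 28.1 in section 5, 109.9 in section 7 and 145.1 in section 8. The 63 loci had medians of 27.9, 13.4, 18.7, 61.3 and 115.3 CPM in the same sections. Single loci vary around these medians, and some in either set, such as V4_HAP1_PB.5732 in the first, changed little from section 1 to section 5. This division was made after the values were seen and serves to describe the other series.

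**Figure D2:**
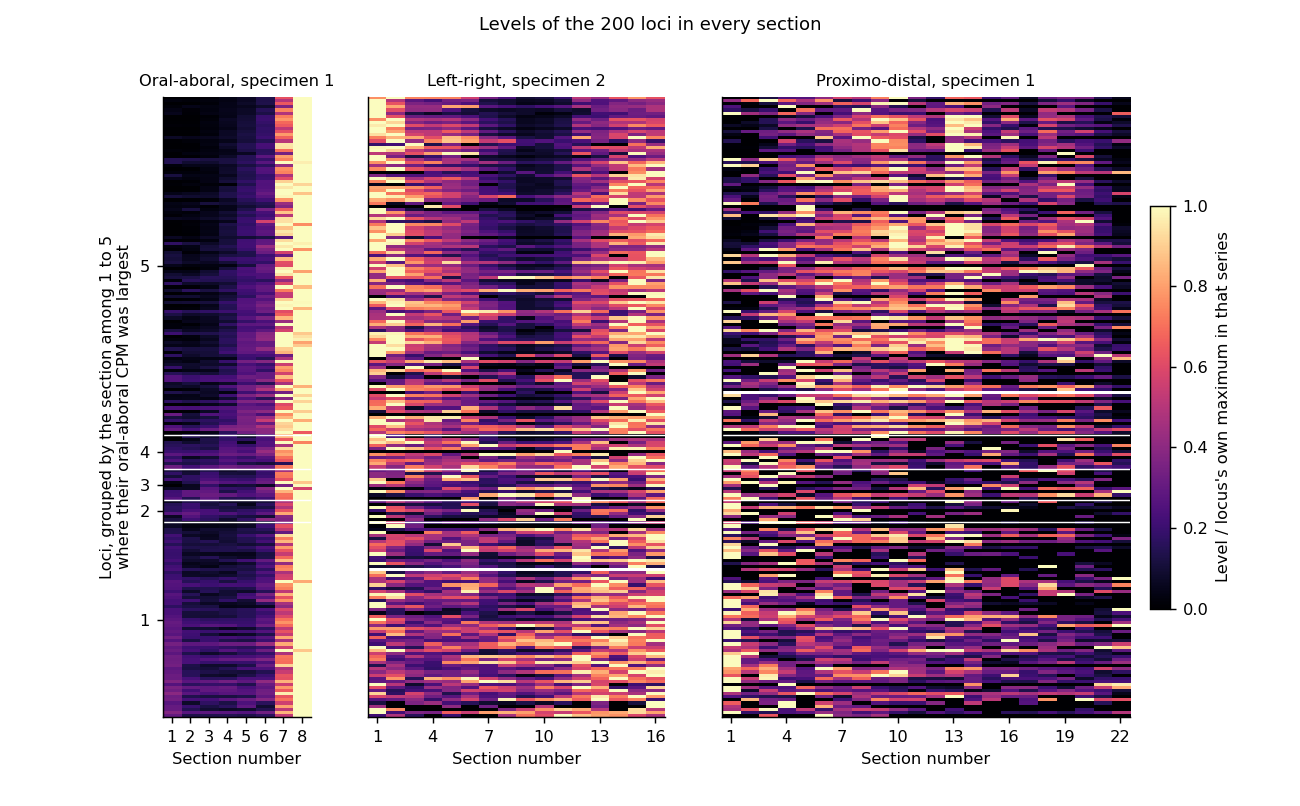
Level of each of the 200 loci (rows) in each of the 46 sections (columns), as a share of the locus's own highest value in that series; oral-aboral values are CPM of the selection rule and the others TMM-normalised CPM. White lines separate the loci by the section among oral-aboral 1 to 5 where they were largest (109 loci for section 5 at the top, 63 for section 1 at the bottom), and many of the loci at the top are bright at both ends of the left-right series and in the middle of the proximo-distal series.

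Across the width of an arm of the other specimen, most of these loci were high at both margins and low at the midline. Their share of the counts without V4_HAP1_PB.21421 averaged 21.3% ± 4.37 in the 10 outer sections (1 to 5 and 12 to 16). It averaged 8.02% ± 4.18 in the 6 central sections (SD over sections). The outer sections ranged from 15.1% to 28.8% and the central ones from 3.76% to 15.2%, so they overlapped only between sections 12 and 6. Outer sections exceeded central ones 2.66-fold, and 2.71-fold without the 2 loci most counted in oral-aboral sections 7 and 8.

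For the test, loci were filtered for low counts, libraries were scaled by TMM, and position and its square were fitted together with edgeR's quasi-likelihood model, with Benjamini-Hochberg adjustment over all 16523 loci tested. Of the 200 loci 178 passed the filter. The 22 that did not had 0 to 49 left-right counts in all. Of the 178, 108 were higher at the edges and 7 higher in the middle (adjusted p under 0.05), while 63 did not pass. The 63 had a median of 218 left-right counts against 3349.5 for the 108, and 38 of the 63 had a positive fitted difference. The background was 8.96% of all loci tested for the edges and 12.9% for the middle. The median fitted difference, edges minus middle on the log2 scale, was 1.66 over the 178 loci and -0.12 over all loci tested. These loci were also better counted, with a median of 722.5 left-right counts against 264 over all loci tested, and the part of that difference in the number of calls was not tested. The number higher at the edges was 95 with scaling by total count alone, which shifted the median of all loci to -0.49 and called 15 of these loci higher in the middle, against backgrounds of 4.46% and 25.4%. Leaving out each section in turn gave 96 to 109, as counts only, since the shares of all loci in those fits are not given.

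A spline of position with 3 degrees of freedom, which can follow any smooth pattern, called 131 of the 178 loci, against a background of 25.6%. Its fitted peak was in sections 1 to 5 for 48 loci, in sections 6 to 11 for 9 and in sections 12 to 16 for 74, against 6%, 15.1% and 4.48% of all loci tested. Most of these peaks sat at the very ends, 46 in section 1 and 66 in section 16, where the backgrounds were 5.3% and 3.01%.

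**Figure D3:**
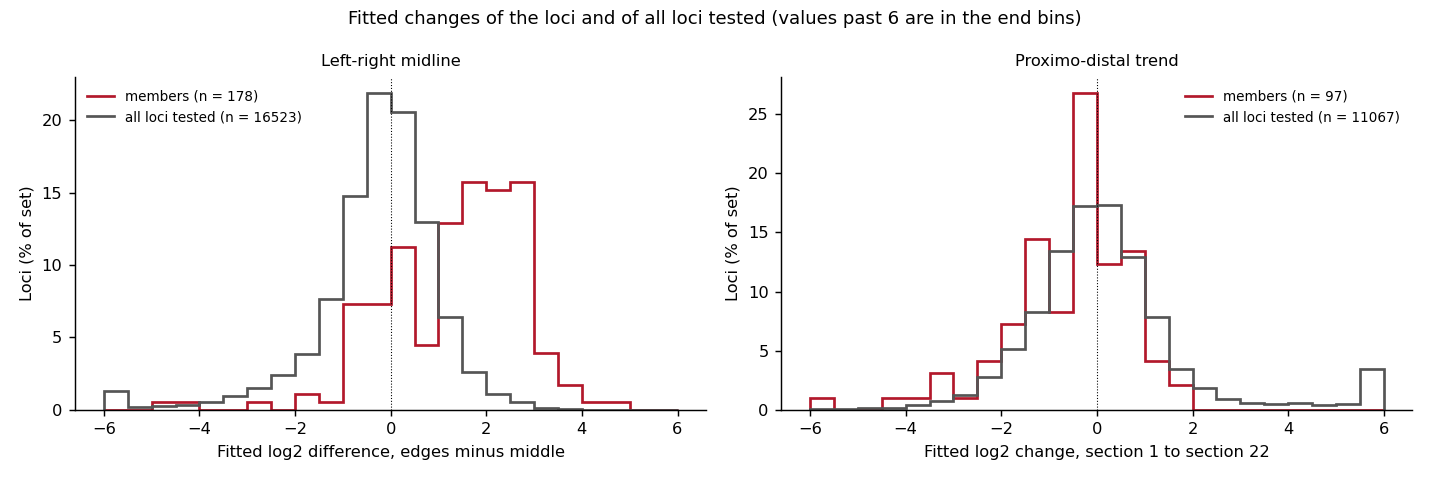
Fitted log2 changes of the loci tested (red) and of all loci tested (grey), as percent of each set per bin of 0.5. On the left is edges minus middle of the left-right series, taken between the ends and the centre of the fitted curve. On the right is the change from section 1 to section 22 of the proximo-distal series. The red outline is shifted to positive values on the left (median 1.66 against -0.12) and lies near 0 on the right (median -0.35 against 0.01).

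The 108 edge-high loci were raised on both sides: each had a higher mean in sections 1 to 5 and in sections 12 to 16 than in sections 6 to 11. Their outer sections exceeded the central ones by a median of 3.11-fold, from 1.6-fold to 40.5-fold. The lowest section was among sections 8 to 11 for 97 of the 108. The 108 were called on these same values by a fit that favours a low centre. These numbers thus describe the loci called and add no evidence to the call. Between the sides the ratio of sections 12 to 16 over sections 1 to 5 had a median of 0.86 and a range from 0.47 to 2.83. By ratio, 40 of 46 tested among the first 50 loci were edge-high and 17 of 43 among the last 50, against the background of 8.96%, and the ratio and the fitted edge difference had a Spearman correlation of 0.42 across 178 loci. That correlation is a description over loci that share libraries.

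V4_HAP1_PB.2458 had the largest fitted edge difference of the 178 loci. It had a lowest, median and highest normalised CPM of 116.4, 337.3 and 996.7 in the 10 outer sections, against 22.4, 43.3 and 111.5 in the 6 central sections. Outer and central sections did not overlap, and its values fell at every step from section 1 to section 7 and rose at every step from section 10 to section 16. The fitted difference, between the ends and the centre of the curve, was 4.53 ± 0.39 on the log2 scale (SE, edgeR quasi-likelihood adjusted p = 3.12e-07). The mean of the outer sections was 8.34-fold that of the central ones. V4_HAP1_PB.2455, with the smallest p, had 18.9, 51.4 and 163.1 in the outer sections, against 3.29, 11.0 and 17.8 in the central sections. Here too the groups did not overlap, with section 1 at 163.1 and section 16 at 147.8 standing above all others. Its fitted difference was 3.97 ± 0.29 (SE, adjusted p = 2.13e-08). These 2 identifiers differ by 3 in their number, and whether they are neighbouring genes or models of a single one is not known from the files.

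The loci with the highest ratio and the most counts showed the same direction with more spread. V4_HAP1_PB.5377 ranged from 3013 to 6931 normalised CPM in the outer sections with a median of 5134, against 654.9 to 3893 with a median of 1460 in the central sections (fitted log2 difference 1.91 ± 0.53, SE, edgeR adjusted p = 0.0133). Section 6, a central section by number, lay within the outer range. V4_HAP1_PB.5732 ranged from 8911 to 35479 with a median of 15638 in the outer sections, against 3204 to 16118 with a median of 4062 in the central sections (2.39 ± 0.45, SE, adjusted p = 0.000930). Section 6 again accounted for the overlap. V4_HAP1_PB.12919 ranged from 85.2 to 385.5 with a median of 141.7 in the outer sections, against 23.3 to 136.8 with a median of 37.5 in the central sections (2.36 ± 0.46, SE, adjusted p = 0.00123).

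Against the direction of the list, 7 loci were higher in the middle. V4_HAP1_PB.7566 had a lowest, median and highest normalised CPM of 0.857, 5.08 and 24.2 in the outer sections, against 12.8, 33.2 and 40.7 in the central sections (fitted log2 difference -4.48 ± 0.62, SE, edgeR adjusted p = 5.98e-05). Only sections 5 and 12 among the outer ones reached the central range. In the oral-aboral series it differed from most of the list in being higher in section 7 (110.7 CPM) than in section 8 (63.2 CPM). V4_HAP1_PB.16186 had 2.28, 6.85 and 14.8 in the outer sections, against 5.95, 26.6 and 30.1 in the central sections (-2.51 ± 0.48, SE, adjusted p = 0.00100). Of its central sections 5 lay above every outer one, and section 6 lay within the outer range.

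**Figure D4:**
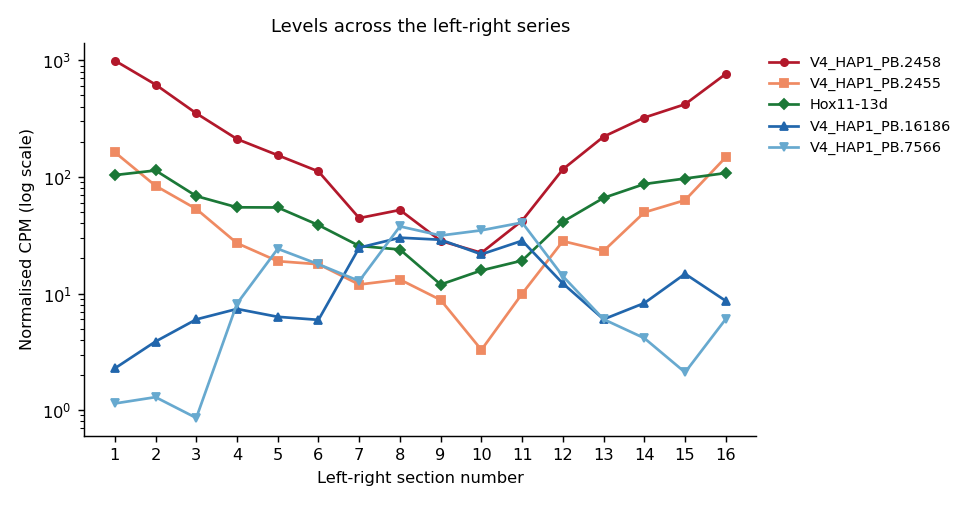
Normalised CPM (log scale) in each of the 16 left-right sections of the 2 loci called higher at the edges with the smallest p, the 2 called higher in the middle with the smallest p, and the named gene Hox11-13d. V4_HAP1_PB.2458 reaches 996.7 in section 1 and 22.4 in section 10, and V4_HAP1_PB.7566 peaks at 40.7 in section 11.

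Few of these loci were called as different between the sides of the arm, and those not called may still differ. A slope, fitted beside the square, passed for 9 of the 178 (edgeR quasi-likelihood test, adjusted p under 0.05). Of these, 8 rose towards section 16 and 1 fell. That is 4.49% and 0.562% of the 178, against lower backgrounds of 0.92% and 0.151%. V4_HAP1_PB.19912 ranged from 18.2 to 88.3 normalised CPM with a median of 86.1 in sections 1 to 5, from 83.3 to 377.6 with a median of 301.4 in sections 6 to 11 and from 170.3 to 354.8 with a median of 190.5 in sections 12 to 16. Its fitted change from section 1 to section 16 was 2.88 ± 0.40 on the log2 scale (SE, edgeR adjusted p = 0.000503), and it is also among the 7 loci higher in the middle. V4_HAP1_PB.2505 averaged 9.30 ± 1.78 over sections 1 to 5, 14.4 ± 6.18 over the central sections and 30.6 ± 1.86 over sections 12 to 16 (SD over 5, 6 and 5 sections), a step without overlap between the sides (2.34 ± 0.37, SE, adjusted p = 0.00154). V4_HAP1_PB.12916, the only one that fell, averaged 34.1 ± 10.5, 20.3 ± 11.6 and 12.7 ± 4.76 (-1.99 ± 0.46, SE, adjusted p = 0.0350). That call was lost without section 2, 4, 5, 6, 11, 12, 13, 14 or 16 (adjusted p from 0.0513 to 0.130). With sections 12 to 16 set against sections 1 to 5 as groups, edgeR called 3 loci of the list as rising, and neither V4_HAP1_PB.19912 (adjusted p = 0.0990) nor V4_HAP1_PB.12916 (adjusted p = 0.225) was called. The share of all loci called in that fit is not given.

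Along the length of an arm of specimen 1, the loci took a small share of the counts and were highest midway. For sections 1 to 7 the share averaged 1.54% ± 0.63, for sections 8 to 15 it was 2.41% ± 0.62, and for sections 16 to 22 it was 1.28% ± 0.55 (SD over 7, 8 and 7 sections). It peaked at 3.17% in section 10 and was lowest, at 0.365%, in section 22. These shares leave V4_HAP1_PB.21421 out of the total, and with it the 3 averages were 1.52%, 2.08% and 0.90%.

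At this depth only 97 of the 200 loci passed the filter, with a median of 271 proximo-distal counts against 261 over all loci tested. The 103 others had 0 to 81 counts. The same spline called 87 of the 97 (edgeR quasi-likelihood test, adjusted p under 0.05), against a background of 53.4% of 11067 loci. Its maximum was in sections 1 to 7 for 25 loci, in sections 8 to 15 for 60 and in sections 16 to 22 for 2, against backgrounds of 18.7%, 11.2% and 23.5% of loci tested. A peak in sections 8 to 15 was found for 52 to 72 loci over the other scalings and filters tried and without both end sections. With scaling by total count alone it was found for 58. The number of loci tested differed between filters and the shares over all loci are not given, so these are counts only.

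V4_HAP1_PB.5377 illustrates the midway maximum. It had a lowest, median and highest normalised CPM of 15.3, 775.4 and 1831 in sections 1 to 7, of 587.8, 1841 and 3202 in sections 8 to 15 and of 156.9, 967.4 and 1164 in sections 16 to 22. The 3 ranges overlapped, and the highest value was in section 10 (spline adjusted p = 2.61e-06, edgeR). A straight line did not describe it, with a fitted change of -0.02 ± 1.16 from section 1 to section 22 (SE, adjusted p = 0.992).

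A straight line called 20 of the 97 loci, of which 19 fell and 1 rose towards section 22, against backgrounds of 19.1% and 20.3%. The median fitted change was -0.35 on the log2 scale, against 0.01 over all loci tested. With scaling by total count alone edgeR called 38 as falling and 0 as rising (0 at an unadjusted p under 0.05; limma-trend with TMM called 3 as rising, all different from the 1 above), against 34.6% and 9.61% of all loci, and the median of all loci moved to -0.66. From section 12 on, V4_HAP1_PB.21421 took 12.2% to 50.3% of the counts of this series, and its part in that shift was not tested.

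V4_HAP1_PB.2458, the locus with the strongest edge pattern, also had the smallest p among those that fell along the arm. It had a lowest, median and highest normalised CPM of 29.1, 46.7 and 55.1 in sections 1 to 7, of 5.02, 13.9 and 29.0 in sections 8 to 15 and of 0, 3.65 and 6.97 in sections 16 to 22. The first range lay above the others, and the fitted change from section 1 to section 22 was -4.38 ± 0.47 (SE, edgeR quasi-likelihood adjusted p = 4.24e-08). V4_HAP1_PB.5732 had 1268, 1851 and 3194 in sections 1 to 7, then 381.6, 1160 and 1585, and 87.5, 385.1 and 898.1 in sections 16 to 22. The first and last ranges did not overlap (-3.31 ± 0.43, SE, adjusted p = 7.02e-07). V4_HAP1_PB.4148, the 1 that rose, had medians of 31.1, 31.6 and 53.6 and a maximum of 81.4 in section 22 (1.19 ± 0.39, SE, adjusted p = 0.0183). Without section 22 that call was lost (0.94, edgeR adjusted p = 0.0794), as it was with total count alone (0.60, adjusted p = 0.326) and in the limma-trend fit (0.89, adjusted p = 0.0633).

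Left-right and proximo-distal values did not enter the division of the list by its largest value among oral-aboral sections 1 to 5. It was made with earlier results of these data known, so its contrasts in those series are a description. Of the loci largest in section 5 among sections 1 to 5, 79 of 100 tested were higher at the left-right edges and 1 in the middle, against 8.96% and 12.9% of all loci tested, with a median edge difference of 2.09 on the log2 scale. Of those largest in section 1, 21 of 56 were higher at the edges and 3 in the middle, with a median of 0.43, and they included 7 of the 8 loci that rose towards left-right section 16. Along the arm's length 8 of 64 loci largest in section 5 peaked in sections 1 to 7 and 51 in sections 8 to 15, against 18.7% and 11.2% of all loci tested. Of the loci largest in section 1, 14 of 26 peaked in sections 1 to 7 and 9 in sections 8 to 15. On average the loci largest in section 5 were lowest near both ends of the length. They had -1.34, -1.42 and -1.48 SD units in proximo-distal sections 1, 2 and 22. Those largest in section 1 were highest in proximo-distal section 1, at 1.07 SD units. These are counts over loci and no test of the difference between the subsets was made. The part of count depth in these calls was not tested either.

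**Figure D5:**
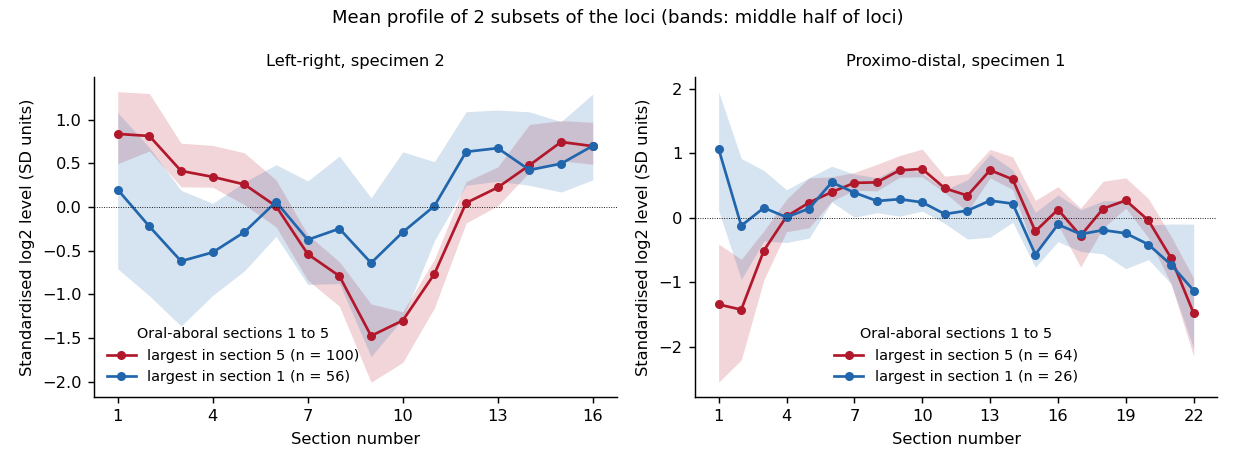
Mean standardised log2 normalised CPM (each locus scaled to mean 0 and SD 1 over the sections) of the loci largest in oral-aboral section 5 (red) and section 1 (blue) among sections 1 to 5, along the left-right series (100 and 56 loci) and the proximo-distal series (64 and 26 loci); bands are interquartile ranges over loci. Red dips to -1.48 at left-right section 9, and blue is highest at proximo-distal section 1 (1.07).

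Both patterns met in many of the same loci. Of the 95 loci of the list tested in both series, 52 were higher at the left-right edges and peaked in proximo-distal sections 8 to 15, against 2.31% of 10542 loci tested in both. Another 11 were higher at the edges and peaked in sections 1 to 7, against 4.18%. The 52 were 54.7% of the 95 loci. Each pattern was common in the list by itself, at 60.7% of the loci tested across the arm and 61.9% of those tested along it. Whether the 2 met more often than these shares alone would give was not tested.

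The 66 loci that carry a gene symbol include Hox, Wnt, Pax and Lhx genes. Of these 66, 2 reached the ratio of the last locus of the list, Hox11-13d and Hox11-13b. Both are posterior-class Hox genes, which encode homeodomain transcription factors that pattern body axes in other animals. The class did not share this pattern: Hox11-13a had a ratio of 0.267 and Hox11-13c of 0.202, both with their largest value in section 5. These 2 were little counted, with 53 and 57 oral-aboral counts. Hox11-13e had 1 count, too few to place it. Hox11-13d had 30.6, 18.0, 12.9, 16.7, 20.0, 25.9, 74.1 and 92.4 CPM in oral-aboral sections 1 to 8, a ratio of 2.67, with section 1 the largest of sections 1 to 5. Hox11-13b had 9.13, 4.25, 3.5, 8.13, 22.9, 26.8, 73.3 and 49.6 CPM, a ratio of 2.61, with section 5 the largest. It is not known whether reads of a named gene are also counted under an unnamed locus.

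Hox11-13d ranged from 41.3 to 113.7 normalised CPM with a median of 77.8 in the outer sections, against 12.0 to 38.7 with a median of 21.5 in the central sections, without overlap (fitted log2 difference 2.58 ± 0.34, SE, edgeR adjusted p = 3.40e-05). Hox11-13b ranged from 7.73 to 24.9 with a median of 13.8 in the outer sections, against 5.66 to 22.3 with a median of 8.26 in the central sections. Its fitted difference was 0.34 ± 0.49 (SE, adjusted p = 0.652), not larger than the scatter of sections. Whether the 2 genes differ in this was not tested. Along the arm's length Hox11-13d had medians of 16.7, 12.3 and 4.88 normalised CPM in sections 1 to 7, 8 to 15 and 16 to 22, and Hox11-13b had 9.34, 21.1 and 17.1.

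Of the 54 named genes tested across the arm, Hox11-13d followed the mean profile of the list most closely, with a Pearson correlation of 0.95 over 16 sections. It was followed by the paired-box gene Pax2-5-8 (0.93), the Hox gene Hox5 (0.93), the LIM homeobox gene Lhx1-5 (0.83) and Hox1 (0.81). Along the arm's length, of 45 named genes tested, Hox11-13b came first (0.75 over 22 sections), followed by the Wnt receptor gene Fzd9-10 (0.72), Hox5 (0.68), Hox9-10 (0.65) and the Wnt ligand gene Wnt6 (0.63). The edgeR spline along the length called Fzd9-10 (adjusted p = 0.0167) and Hox5 (adjusted p = 0.000932). It did not call Hox11-13b (adjusted p = 0.0593), Hox9-10 (adjusted p = 0.0540) or Wnt6 (adjusted p = 0.437), which had 152, 207 and 149 proximo-distal counts. Likeness along the length did not go with likeness across the arm for all of these genes: Wnt6 and Hox9-10 had correlations of -0.80 and -0.56 with the list over the left-right sections. Both were called higher in the middle there, Wnt6 with a fitted difference of -5.32 ± 0.79 (SE, edgeR adjusted p = 0.000119) and Hox9-10 with -1.46 ± 0.46 (SE, adjusted p = 0.0302), a call lost when outer and central sections were fitted as groups (adjusted p = 0.116) and without section 1, 2, 7, 8 or 15 (adjusted p from 0.0525 to 0.0635). Their oral-aboral ratios were 0.0455 and 0.26, and that of Fzd9-10 was 0.373. Of these genes, Hox5 alone was among the first 5 in both series. Its median was 66.5 normalised CPM in the outer left-right sections, against 26.6 in the central ones, and its medians along the arm were 34.9, 35.7 and 15.1. These correlations describe sections that share libraries and scaling with the list. Hox5 had a largest oral-aboral value outside sections 7 and 8 and a ratio of 0.676.

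By identifier, 195 of the 200 loci belong to the HAP1 set and 5 to HAP2. Of the HAP1 loci, 23 had another locus of the list at the next or previous identifier number, forming 12 consecutive pairs. Across the 16 left-right sections the members of these pairs had Pearson correlations from -0.23 to 0.98 with a median of 0.91, and in 8 pairs both were higher at the edges. Of the 178 loci of the list tested there, 108 were edge-high, and pairs at other numbers were not compared. How often all loci form consecutive pairs was not counted either, so nothing is read from these values. The files give no coordinates, so whether consecutive pairs are neighbouring genes or pieces of the same gene cannot be told from them. Of the 200 loci 12 had 2 transcript models, and in 5 of these both models had at least 100 oral-aboral counts. The models did not always share the pattern: in 3 of the 5 the lesser model had a ratio under 1, at 0.0644, 0.241 and 0.515, while the other had 2.59, 4.57 and 8.70.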

How the data were processed

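Arm sections were profiled as 46 libraries. The deposited file holds unnormalised counts, whole numbers, for each transcript model in each section. The labels' protocols name Iso-Seq library kits for polyadenylated RNA; for mapping and counting, tools, genome build and filters were not given in the sources used here. Columns were matched to sections by the code in each title. The 25794 rows were summed to 23869 loci (1925 had 2 rows). Reads carry no molecular identifiers, so limits from a count of 0 (3 counts of the total) cover counting error only.

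The list and its subsets were chosen with earlier results of these data known. Each series was fitted alone with edgeR 4.0.16 in R 4.3.3: filterByExpr (minimum count 5, minimum total 15), TMM, glmQLFit and glmQLFTest, adjusted p under 0.05. Spline fits had 3 degrees of freedom. Alternatives included limma 3.58.1 and DESeq2 1.42.0. In simulated counts with independent sections, the left-right square and proximo-distal line recovered 98% and 99% of log2 changes of 3. They recovered 23% and 29% of log2 changes of 1, and 3.2% and 5.88% of their calls were false. Deviations shared by neighbouring sections were not simulated, so the simulation does not bear on them. Neighbouring sections may share deviations, so p-values are approximate. Loci named are the 2 highest by ratio and by counts, the 2 with the smallest p per direction and test, the named genes past the ratio of the last locus, and the 5 named genes most correlated with the list in each series.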

Additional observations from a re-analysis of the deposited data

Results flagged for a closer look

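Over the 8 oral-aboral sections, the 7 named genes described for their likeness to the list, which no oral-aboral value chose, were examined for a section far from the rest. The gap from the extreme section to the nearest one, as a share of the whole range, passed Dixon's 95% critical value for 1 of them. Section 1 stood apart for Lhx1-5 (0.5785), at 173.3 CPM against 39.7 to 96.0 in the other sections. Chance flags about 1 in 20 sets of independent samples, and these sections are positions along an axis.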

How the results depend on the processing

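No paired analysis was possible because section numbers are positions along an axis, so sections set against each other share no number. Lists rebuilt under 7 other settings of the rule shared 162 to 197 loci with the list described. Edge-high loci numbered 95 to 111 over all alternatives. The number tested and the share of all loci called also changed between alternatives, so this range is of counts only. Left-out sections gave 7 to 9 loci higher in the middle, 6 to 10 rising and 0 to 1 falling across the width, and 1 rising and 16 to 24 falling along the length. The 1 rising was V4_HAP1_PB.4148 in 21 of these 22 fits and another locus without section 22. Loci higher in the middle, 7 as described, were 4 for central against outer sections, 15 with total count alone and 4 with section 6 among the low sections of the rule. The 8 rising across the width were 3 for sections 1 to 5 against 12 to 16 and 4 with the smaller of sections 7 and 8 in the rule. The 1 falling became 0 with limma-trend, with edgeR for sections 1 to 5 against 12 to 16 and with edgeR without both end sections (16, 7 and 12 at an unadjusted p under 0.05), and was 1 with DESeq2. Along the length, the 1 rising became 3 with limma-trend, of which 0 were V4_HAP1_PB.4148, with edgeR 0 for sections 1 to 7 against 16 to 22, 0 with total count alone and 0 without both end sections (2, 0 and 2 at an unadjusted p under 0.05), 3 with at least 300 counts in the rule, 2 with a pseudocount of 5 and 3 with the smaller of sections 7 and 8. The 19 falling became 6 with a minimum count of 10, where 62 loci were tested, 40 with no low-count filter, where 199 were, 38 with total count alone and 29 with a pseudocount of 5. DESeq2's likelihood ratio test stood in for its Wald test in the spline fits. The other numbers of loci called in this paragraph are counts only too. The share of all loci called is given above for total count alone and not for the other fits. The cause of these changes in number was not tested. At the depth of the proximo-distal series, the low-count filter left 103 of the 200 loci untested.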
